A study of Mus musculus with 5 samples.

Results

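The lysosome is the acidic compartment in which cells digest proteins, lipids and sugars, and the genes examined here encode its cathepsins, its proton pump and its main membrane glycoproteins. They were taken by symbol from the authors' deposited table of atrial fold changes: every cathepsin gene with a single letter after Cts, every Atp6v and Atp6ap gene, and Lamp1 and Lamp2. This gave 33 of the 14927 genes in that table, namely 12 cathepsins, 9 subunits of the V1 sector of the pump, 8 subunits of its V0 sector, the accessory proteins Atp6ap1 and Atp6ap2, and the 2 Lamp genes. The rule used symbols and no measured value. A further 15 genes have matching symbols in the RSEM tables and are no members under the rule, among them Ctse, Ctsg, Atp6v0d2 and Atp6v1b1, and none of them exceeded 8 expected counts in any library.

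Libraries came from cardiac atria of mice heterozygous for the E990G variant of MRC2, an endocytic collagen receptor (het; replicates 5, 6 and 7), and of wild-type mice (WT; replicates 7 and 8). Each was a stranded polyA library of batch 2, made from RNA of an atrial pair. The series describes 7 het and 8 WT animals aged 4 to 10 months, and the 5 libraries analysed here are part of these. Strain, sex and the age of each animal are not given in the labels used here, and nothing in them says how the WT mice were related to the het mice.

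Cathepsins are proteases that are made as inactive precursors, sorted to lysosomes and activated at low pH. The vacuolar proton pump (V-ATPase) supplies that pH: its cytosolic V1 sector hydrolyses ATP, and its membrane-bound V0 sector carries protons through a ring of c subunits. LAMP1 and LAMP2 are heavily glycosylated proteins that cover the inner face of the lysosomal membrane, and loss of LAMP2 in humans causes Danon disease, in which autophagic vacuoles accumulate in heart muscle. Transcription factors of the MiT/TFE family, such as TFEB, are known to bind an E-box-containing element in many lysosomal promoters.

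Promoter sequences were available from RefSeq (build GRCm38.p6) for 25 of the 33 members, as windows of 250 bases before to 50 bases after a transcription start. The E-box CACGTG, which reads the same on both strands, occurred in windows of 9 of these 25 genes (36.0%), against 8.09% of 27025 genes with a window. The longer palindrome TCACGTGA, which contains that E-box, occurred in 5 of the 25 (Atp6v0d1, Atp6v0e, Atp6v1a, Ctsa and Ctsd; 20.0%) against 1.12% of all genes. The 10-letter CLEAR element, which extends that palindrome by a base at each end, occurred in 0 of the 25 against 0.370% of all genes. Stretches upstream of the start are shown for 5 members whose values are described further on, with each E-box in capitals. They show that the number and spacing of E-boxes differ among members. A match describes these letters only, and binding was not measured.
Atp6v0b, chr4:117887330-117887380, minus strand: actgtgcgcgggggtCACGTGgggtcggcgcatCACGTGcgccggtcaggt
Atp6v1a, chr16:44139370-44139405, minus strand: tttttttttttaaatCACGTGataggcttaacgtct
Ctsa, chr2:164833746-164833772, plus strand: caatgagcaaactgtCACGTGatgcag
Ctsd, chr7:142387905-142388077, minus strand: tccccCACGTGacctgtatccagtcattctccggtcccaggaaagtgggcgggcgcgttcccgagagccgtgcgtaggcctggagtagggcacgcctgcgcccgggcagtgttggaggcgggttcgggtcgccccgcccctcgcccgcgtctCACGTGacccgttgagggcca
Lamp1, chr8:13159085-13159160, plus strand: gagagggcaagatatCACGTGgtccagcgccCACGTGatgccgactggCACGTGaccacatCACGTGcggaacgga

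Total expected counts (the reads that RSEM assigned to genes) ran from 21410811 to 28353091 in the het libraries and were 24445791 and 17784601 in the WT libraries. The members together took 0.369% to 0.438% of the counts of a library. WT 7 stood apart, with 938 counts of Y-linked Ddx3y, against at most 3 in any other library, and with little Xist. The WT group thus holds 1 library of each kind, and the 3 het libraries are all of the kind with abundant Xist. Cardiomyocyte markers were abundant in every library and summed to 60070, 58382 and 64603 CPM (counts scaled to library size) in het, against 76570 and 78287 CPM in WT. The 8 markers did not all go the way of their sum. In the edgeR test described further on, 3 had a log2 fold change (het over WT) above 0 and 5 below 0. These values ran from -0.64 to 0.69, and at an adjusted p under 0.05 edgeR called 1 higher and 1 lower in het. The part of these markers in the results that follow was not tested. In bulk tissue, fewer cells of a type and less RNA per cell cannot be told apart.

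Levels are compared between genes as TPM, a unit that divides by transcript length. Ctsd, the aspartic protease cathepsin D, was the highest member, with 355, 414 and 462 TPM in het and 461 and 509 TPM in WT. It made up 34.0% to 44.5% of the TPM of all cathepsins. Ctsb, a cysteine protease, followed with 173, 210 and 250 TPM in het against 196 and 162 TPM in WT, and then Ctsl, another cysteine protease, with 151, 194 and 176 TPM in het against 138 and 166 TPM in WT. The het and WT libraries overlapped in TPM for each of these 3 cathepsins.
In the V1 sector Atp6v1f, which encodes subunit F of the central stalk, was highest, with 142, 132 and 137 TPM in het against 177 and 157 TPM in WT. In the V0 sector the proteolipid gene Atp6v0c was highest, with 214, 220 and 259 TPM in het against 288 and 296 TPM in WT. All 3 het libraries lay below both WT libraries for these 2 genes. Atp6v0a4, the subunit a form known from kidney and inner ear, was near the floor with 0.41 to 1.01 TPM, as was Ctsw, a cathepsin of cytotoxic lymphocytes, with 0.20 to 1.59 TPM.

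**Figure D1:**
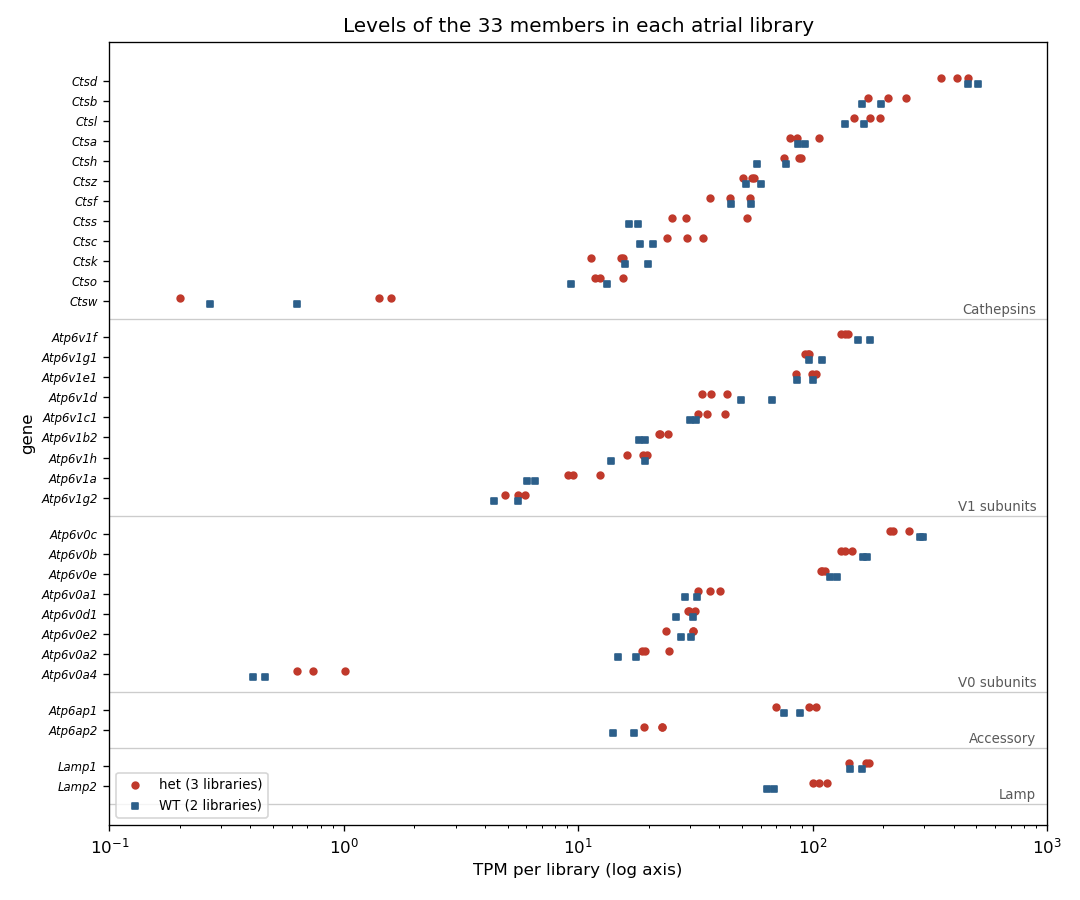
Levels of the 33 members in TPM (log axis), with a point for each het and WT library and the genes grouped as cathepsins, V1 subunits, V0 subunits, accessory proteins and Lamp genes. The members span from Atp6v0a4 and Ctsw near 1 TPM to Ctsd, at 355 to 509 TPM.

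Summed over the V0 sector, the members reached 561, 587 and 643 TPM in het against 675 and 698 TPM in WT. For V1 the sums were 441, 464 and 473 TPM in het against 483 and 515 TPM in WT. In TPM every het library lay below both WT libraries for both sectors. In CPM this held for V0 and not for V1, whose sums of 483, 478 and 468 CPM in het overlapped the 482 and 558 CPM in WT. The cathepsin sums were 1015, 1217 and 1253 TPM in het and 1150 and 1143 TPM in WT, so these groups overlapped. The Lamp sums of 251, 285 and 274 TPM in het all lay above the WT sums of 209 and 231 TPM, but in CPM the sums of 600, 627 and 564 in het overlapped the 474 and 576 in WT. Sums over the members were not tested.

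Genes were tested for het over WT with edgeR's quasi-likelihood test on the counts of all 16412 genes that passed its expression filter, and all 33 members passed. Of the members, 2 were called lower in het at an adjusted p under 0.05 (Benjamini-Hochberg) and 0 higher. That is 6.06% of the members, against 5.64% of all tested genes called in either direction, 2.66% of them lower and 2.99% higher. An unadjusted p under 0.05 was reached by 12 of the 33 members, 9 lower and 3 higher in het (36.4%), against 24.7% of all tested genes. In CPM the groups were fully apart for 17 members (51.5%), against 42.3% of all tested genes. Het was above WT for 5 of these, against 21.1% of all tested genes, and below WT for 12, again against 21.1%. The balance depended on the unit: in TPM every het library was above WT for 10 members and below it for 7, and 16 overlapped. No such count in TPM was made over all tested genes. The log2 fold change was above 0 for 11 members, against 49.9% of all tested genes, and below 0 for 22, and its median was -0.10, where the median of all tested genes was -0.001. On the log2(TPM + 1) scale the members' median was 0.12 and that of all genes 0.10. DESeq2 called 4 members lower (Atp6v0b, Atp6v0c, Atp6v1f and Ctsd) and 2 higher (Ctss and Lamp2), where it called 10.0% of all tested genes. Limma-voom called 0 members and 2.8% of all tested genes.

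Both called members encode proteolipids of the V0 proton ring. Atp6v0b, the c'' subunit, had 78.9, 76.3 and 80.5 CPM in het, against 107 and 114 CPM in WT. The groups did not overlap, and the gene fell by 0.49 on the log2 scale (SE 0.12, edgeR quasi-likelihood adjusted p = 0.0367). Atp6v0c, the c subunit that forms most of the ring, had 183, 172 and 191 CPM in het, against 243 and 270 CPM in WT. It also fell by 0.49 (SE 0.13, edgeR quasi-likelihood adjusted p = 0.0447), again without overlap. Reads of Atp6v0c can be shared with its pseudogenes Atp6v0c-ps1 and Atp6v0c-ps2, which RSEM gave at most 5.72 counts in a library, so its level is uncertain by what RSEM assigned. Both calls were lost when any 1 library was left out, with adjusted p from 0.0523 to 0.128 for Atp6v0b and from 0.0536 to 0.166 for Atp6v0c. The folds in those fits ran from -0.54 to -0.43 for Atp6v0b and from -0.56 to -0.40 for Atp6v0c. The fits without a het library called 0, 1 and 11 genes in all. The fits without a WT library, with 1 WT library left, called more genes, and neither Atp6v0b nor Atp6v0c was among them. In the edgeR fit that takes out trends of transcript length and GC content, Atp6v0b stood at -0.09 (adjusted p = 0.807) and Atp6v0c at -0.11 (adjusted p = 0.786) on the log2 scale.

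The other V0 members did not pass the threshold. Atp6v0e, a small membrane subunit whose promoter holds the longer palindrome, had 56.1, 49.7 and 46.7 CPM in het, against 61.6 and 63.3 CPM in WT. Het lay below WT in every library, with a log2 fold change of -0.30 (SE 0.13, edgeR adjusted p = 0.169). Atp6v0a1, a subunit a form that holds part of the proton channel and is best known from neurons, had 96.5, 101 and 109 CPM in het, against 100.2 and 105 CPM in WT. Its groups overlapped (-0.005, SE 0.12, edgeR adjusted p = 0.985). Over the 8 V0 members the median log2 fold change was -0.15, with 4 below WT in every het library and 4 overlapping. Of all tested genes 21.1% were below WT in every het library.

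Among V1 subunits 0 of 9 were called by edgeR, against 5.64% of all tested genes. An unadjusted edgeR p under 0.05 was reached by 3, against 24.7% of all tested genes. Atp6v1f had 50.1, 37.9 and 40.8 CPM in het, against 67.2 and 55.2 CPM in WT, without overlap (-0.51, SE 0.15, edgeR adjusted p = 0.0600). It was called lower without WT 8 (-0.63, edgeR adjusted p = 0.0480) and in no other fit with a library left out. Without WT 7 it stood at -0.36 (edgeR adjusted p = 0.248). Atp6v1g1, a peripheral stalk subunit, had 77.5, 70.0 and 65.4 CPM in het, against 80.6 and 94.6 CPM in WT. Its groups also did not overlap (-0.30, SE 0.13, edgeR adjusted p = 0.172), and without WT 8 the log2 fold change was -0.17.
Atp6v1e1, its partner in the peripheral stalk, had 85.1, 94.7 and 88.0 CPM in het and 87.8 and 110 CPM in WT, and these overlapped (-0.14, SE 0.13, edgeR adjusted p = 0.548). Atp6v1a, the catalytic subunit that hydrolyses ATP, stood on the other side, with 31.7, 36.3 and 34.6 CPM in het, against 26.6 and 27.6 CPM in WT. Every het library exceeded both WT libraries, and the difference did not pass the threshold (0.34, SE 0.13, edgeR adjusted p = 0.137). Atp6v1c1, a subunit that releases from the pump when the sectors part, overlapped between groups. It had 59.8, 61.0 and 62.7 CPM in het and 55.3 and 63.9 CPM in WT (0.04, SE 0.12, edgeR adjusted p = 0.886). Atp6v1g2 had 5.77, 5.51 and 4.82 CPM in het, against 6.39 and 6.19 CPM in WT, without overlap (-0.23, SE 0.23, edgeR adjusted p = 0.575).

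**Figure D2:**
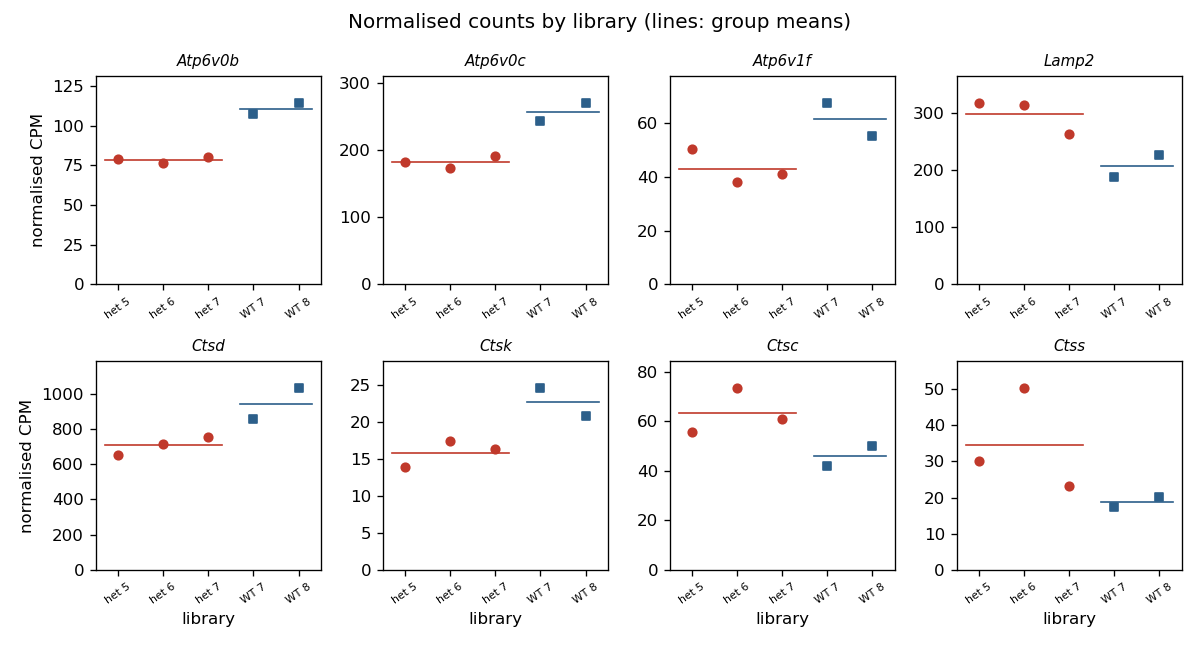
CPM of named members in each library, 1 panel per gene with the het libraries left of the WT libraries; points are libraries and horizontal lines are group means. Atp6v0b and Atp6v0c show no overlap, with het below WT, and Lamp2 shows no overlap, with het above WT.

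Among cathepsins 0 of 12 were called by edgeR, against 5.64% of all tested genes. An unadjusted edgeR p under 0.05 was reached by 5, against 24.7% of all tested genes. In CPM 2 were above WT in every het library, 5 below and 5 overlapping with it. Of all tested genes 21.1% were above WT in every het library and 21.1% below. Ctsd had 653, 713 and 754 CPM in het, against 853 and 1029 CPM in WT. The groups did not overlap in CPM, although they did in TPM, and the log2 fold change was -0.41 (SE 0.14, edgeR adjusted p = 0.0980). Without WT 8 it was -0.26. Ctsb had 543, 618 and 653 CPM in het and 635 and 660 CPM in WT, with overlap (-0.10, SE 0.14, edgeR adjusted p = 0.712).
Ctsl, with 233, 250 and 226 CPM in het and 225 and 275 CPM in WT, overlapped too (-0.08, SE 0.14, edgeR adjusted p = 0.762). Ctsc, which activates serine proteases of immune cells by trimming their ends, had 55.5, 73.2 and 60.8 CPM in het, against 41.9 and 49.8 CPM in WT. Het was above WT in every library (0.46, SE 0.15, edgeR adjusted p = 0.0785).

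A further pair of cathepsins was picked after their values were seen, for the highest and the lowest fold among the members. Ctss, which cleaves the invariant chain in antigen-presenting cells, had 30.2, 50.2 and 23.1 CPM in het, against 17.5 and 20.3 CPM in WT. Het 6 was highest and the groups did not overlap, but the spread within het was wide (0.87, SE 0.36, edgeR adjusted p = 0.217). Without het 6 the log2 fold change was 0.50. Ctsk, the collagen-cleaving protease known from osteoclasts, had 13.8, 17.3 and 16.3 CPM in het, against 24.5 and 20.7 CPM in WT, without overlap (-0.52, SE 0.16, edgeR adjusted p = 0.0658).
Macrophage markers summed to 617, 747 and 526 CPM in het, against 452 and 489 CPM in WT. The sum, Ctss and Ctsc were all highest in het 6. Within het the sum and Ctss were lowest in het 7, and Ctsc was lowest in het 5. All 10 of these markers were tested, and none was at 0 in any group. All had a log2 fold change above 0, against 49.9% of all tested genes. Called higher by edgeR were 2 (Adgre1, 1.14, and Cd163, 1.03), against 2.99% of all tested genes. Of 6 osteoclast markers 2 were tested, and Calcr was at 0. The tested 2 summed to 36.2, 31.8 and 35.6 CPM in het and 31.4 and 21.7 CPM in WT. The part of macrophage and osteoclast markers in the cathepsin values was not tested.

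Lamp2, on the X chromosome, had 316, 314 and 262 CPM in het, against 188 and 226 CPM in WT. Every het library was above both WT libraries, with a log2 fold change of 0.52 (SE 0.15, edgeR quasi-likelihood adjusted p = 0.0547). It was called higher without WT 8 (0.68, edgeR adjusted p = 0.0394), a fit whose only WT library is WT 7, the library with little Xist. Without WT 7 it stood at 0.40 (edgeR adjusted p = 0.184), and no other fit with a library left out called it. The part of the Ddx3y and Xist difference in this result was not tested. Lamp1 had 284, 313 and 302 CPM in het and 287 and 350 CPM in WT, and these overlapped (-0.09, SE 0.14, edgeR adjusted p = 0.745). The accessory gene Atp6ap2, also on the X chromosome, which encodes the prorenin receptor and pump assembly factor, had 39.6, 44.4 and 42.2 CPM in het, against 29.1 and 39.5 CPM in WT. Het lay just above WT in every library (0.30, SE 0.15, edgeR adjusted p = 0.241). Its log2 fold change was 0.09 without WT 7 and 0.55 without WT 8. Atp6ap1, also on the X chromosome, went the other way. It had 119, 143 and 139 CPM in het and 133 and 157 CPM in WT, with overlap (-0.12, SE 0.14, edgeR adjusted p = 0.648). The 13 members not among the 20 that were followed through every alternative had log2 fold changes of -0.23 to 0.48, with a smallest adjusted p of 0.298.

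Fold changes of the members went with transcript length. The members' mean transcript lengths ran from 703 bases (Atp6v1f) to 4779 bases (Atp6v0a2). Of the 16 members shorter than the members' median of 1906 bases, 14 had a log2 fold change below 0, and their median was -0.23. Of the 17 at or above it, 9 had a log2 fold change above 0, and their median was 0.04. Across the 33 members, which share the 5 libraries, Spearman's rho of fold and length was 0.58, and -0.11 once length and GC trends were removed. Over all tested genes the median log2 fold change ran from -0.38 in the shortest length decile to 0.33 in the longest.

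**Figure D3:**
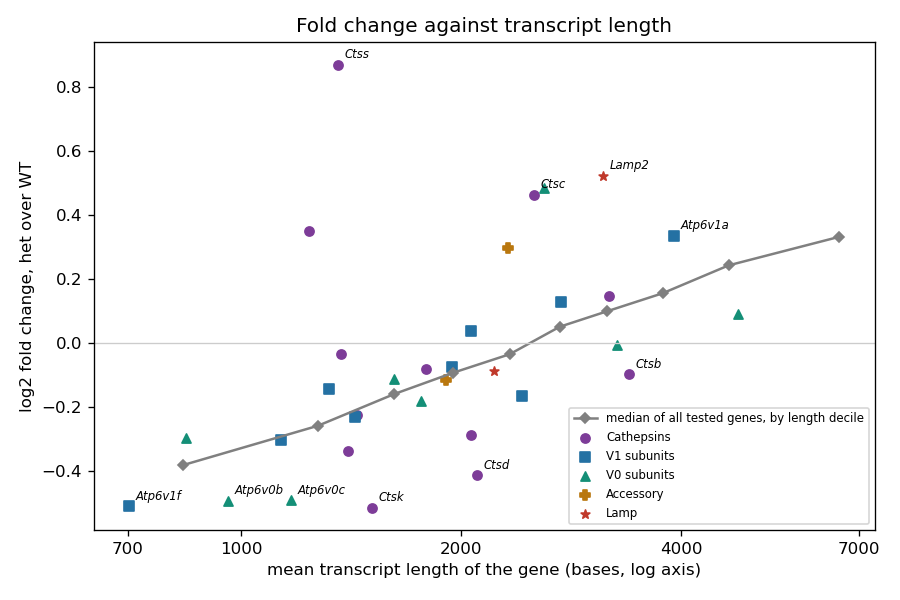
Log2 fold change (het over WT) of each member against its mean transcript length in bases (log axis), with markers for the 5 kinds of member; the line joins the medians of all tested genes in each length decile. Atp6v1f, Atp6v0b and Atp6v0c lie at the short end below 0, and Lamp2 and Ctss lie above the line.

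After length and GC trends were taken out of the counts, 0 of the 33 members were called, and the lowest value was 0.233 (Atp6v1d, edgeR adjusted p). Of all tested genes 0.0244% were called in that fit. An unadjusted p under 0.05 was reached by 5 members (15.2%) against 11.4% of all tested genes. The log2 fold changes were then -0.41 for Ctsk, -0.29 for Ctsd, 0.30 for Ctsc, -0.07 for Atp6v1f, 0.22 for Lamp2 and 0.94 for Ctss. The median over the members was -0.03.

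**Figure D4:**
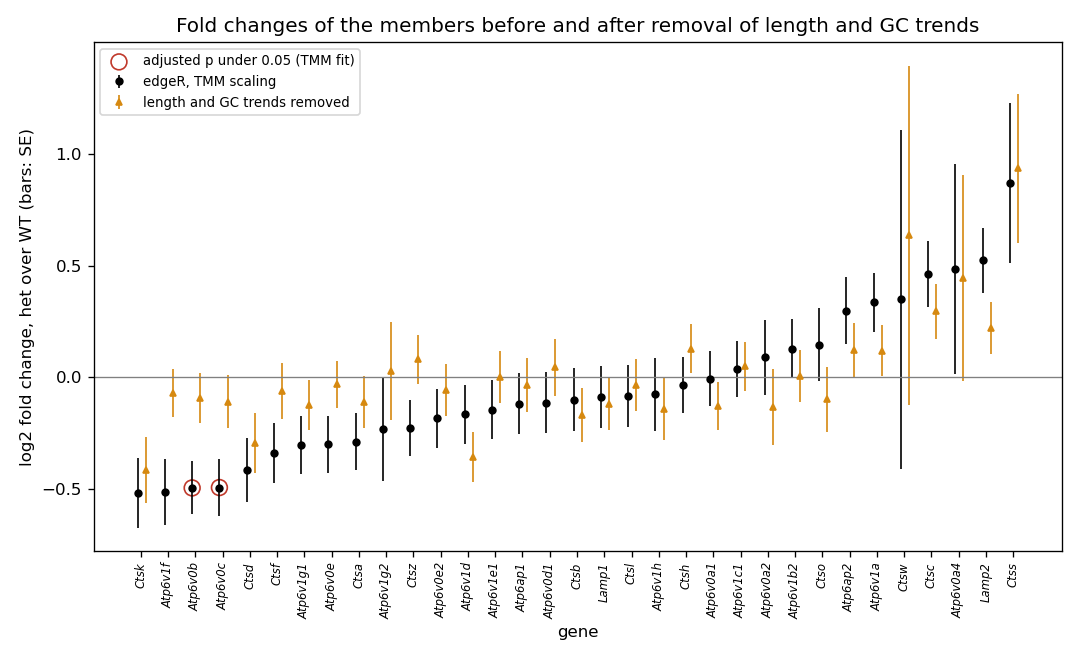
Log2 fold change (het over WT) with its SE for each member, from the TMM-scaled edgeR fit (black) and with length and GC trends removed (orange); red rings mark an adjusted p under 0.05. Atp6v0b and Atp6v0c, the 2 ringed genes, lie near -0.5 in the first fit and near -0.1 in the second.

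Several pump subunits have paralogs whose use can differ between tissues, and each paralog's share of its subunit's TPM was compared. The 5 libraries can be split in 10 ways, which puts a floor of 0.2 under every two-sided exact permutation p, so no share could pass 0.05. For subunit a, Tcirg1 (the a3 form, known from osteoclasts and no member) held 26.2%, 25.2% and 24.7% in het, against 29.3% and 34.2% in WT. Its means were 25.3% ± 0.74 in het (SD, n = 3) and 31.7% ± 3.47 in WT (SD, n = 2; exact permutation p = 0.2, adjusted over 17 shares 0.785).
Atp6v0a2, a form known from Golgi and endosomes, held 26.7% ± 1.60 in het and 23.5% ± 1.96 in WT (SD; exact permutation p = 0.2, adjusted p = 0.785). These were the 2 of 17 shares of TPM without overlap between groups, and both overlapped as shares of expected counts. Where a subunit has 2 forms their shares mirror each other, so the 17 shares are not independent. No count of such shares over all genes was made to set beside these 2. On that scale Tcirg1 held 11.9%, 14.4% and 12.1% in het, against 16.1% and 12.8% in WT. Atp6v0c held 62.4% ± 1.20 of the c ring TPM in het and 63.5% ± 0.12 in WT, and these groups overlapped. The forms Atp6v1b2, Atp6v1c1, Atp6v1e1 and Atp6v0d1 held over 98% of their subunits in every library.

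The share of a gene's expected counts in its leading transcript was tested for 28 members with more than 1 transcript. Groups did not overlap for 8 of the 28, 3 with het above and 5 with het below, against 28.0% of 11323 genes. The smallest exact permutation p was 0.2 and the smallest adjusted p 0.70. Among these 8 the largest differences were in Atp6v0a1 and Atp6v1d, which are described for that reason, after their values were seen. For Atp6v1d, a subunit of the rotating stalk, the leading transcript ENSMUST00000021536 held 96.5%, 95.1% and 93.3% of counts in het, against 86.7% and 83.1% in WT, a difference of 10.1 percentage points.
Another transcript of Atp6v1d, ENSMUST00000219316, is annotated as a retained intron in GENCODE M21. It held 3.4%, 4.8% and 6.2% in het, against 12.7% and 16.8% in WT, without overlap. Over all genes, retained-intron transcripts held 2.54%, 2.44% and 2.54% of counts in het, against 2.94% and 2.54% in WT. The log2 fold change of the whole gene was -0.17 (SE 0.13, edgeR adjusted p = 0.473), and -0.35 with length and GC trends taken out. On the log2(TPM + 1) scale it was -0.60 (limma-trend adjusted p = 0.157), with every het library below both WT libraries in TPM. In the edgeR fit it was 0.01 without WT 8.
For Atp6v0a1 the leading transcript ENSMUST00000092663 held 68.8%, 76.1% and 68.5% in het, against 78.4% and 85.1% in WT, a difference of -10.6 percentage points and again without overlap.

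Lamp2 transcripts share 1109 coding bases and end in different last exons, which is known to give the LAMP-2A, LAMP-2B and LAMP-2C proteins with different membrane-spanning ends. The files do not pair transcript IDs with those names. The coding ends of the 3 main transcripts, from GENCODE M21, are shown to make visible how these ends differ. Capitals mark the bases specific to each, after the last 30 shared bases. Untranslated bases are not shown.
ENSMUST00000061755: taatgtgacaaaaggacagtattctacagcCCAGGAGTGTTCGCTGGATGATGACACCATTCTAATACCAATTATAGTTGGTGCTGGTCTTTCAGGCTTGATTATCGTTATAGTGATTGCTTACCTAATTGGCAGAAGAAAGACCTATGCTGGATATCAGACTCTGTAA
ENSMUST00000016678: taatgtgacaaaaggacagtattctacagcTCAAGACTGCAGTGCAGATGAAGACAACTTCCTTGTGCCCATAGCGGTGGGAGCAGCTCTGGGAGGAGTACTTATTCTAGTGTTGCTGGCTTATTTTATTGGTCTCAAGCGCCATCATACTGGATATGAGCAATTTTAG
ENSMUST00000074913: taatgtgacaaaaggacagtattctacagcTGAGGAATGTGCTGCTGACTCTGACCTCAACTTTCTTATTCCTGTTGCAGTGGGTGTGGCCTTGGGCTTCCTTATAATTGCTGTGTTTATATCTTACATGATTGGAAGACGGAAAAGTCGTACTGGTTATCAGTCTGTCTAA

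The specific ends of ENSMUST00000061755 and ENSMUST00000016678 are of equal length and were identical at 53.2% of 139 bases, compared position by position without gaps. ENSMUST00000061755 led in every library, with 83.8%, 83.2% and 83.6% of Lamp2 counts in het and 83.6% and 85.4% in WT. The groups overlapped (exact permutation p = 0.6, adjusted p = 0.862). ENSMUST00000016678 held 8.21%, 10.97% and 9.20% in het and 9.15% and 7.63% in WT, also with overlap.

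**Figure D5:**
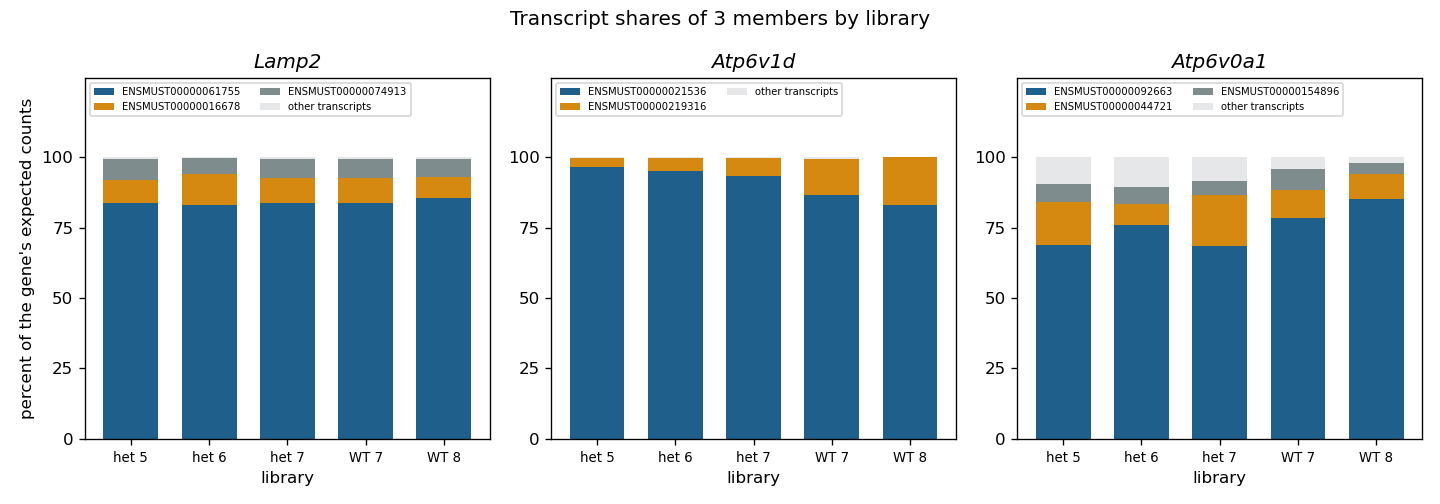
Shares of the expected counts of Lamp2, Atp6v1d and Atp6v0a1 in their main transcripts, stacked in percent for each library, with het libraries left of WT libraries. The blue Lamp2 share lies between 83.2% and 85.4% in all libraries, while the orange share of Atp6v1d is larger in both WT libraries.

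The authors' deposited table compares het with WT atria in its own fit and may hold these 5 libraries too. There, 27 of the 33 members (81.8%) had a log2 fold change below 0, against 55.7% of all its genes. This included 8 of 8 V0 subunits, 11 of 12 cathepsins and 5 of 9 V1 subunits. The t score was 0 for 28 of the 33 members in the authors' deposited table, so its p-values may not test a difference from 0, and what they test against is not given in the sources used here. None of the members had a p under 0.05 in the authors' deposited table, where 5.6% of all genes did, and at an adjusted p under 0.05 it called 0.0% of all genes. Its smallest member p was 0.238, for Atp6v0c, with a log2 fold change of -0.36 and an interval of -0.73 to 0.02, and the interval held 0 for every member. Atp6v0b stood at -0.34 and Atp6v1e1 at -0.29 in the authors' deposited table. On the other side the authors' deposited table gave 0.21 for Atp6v1a, 0.16 for Ctsc, 0.03 for Atp6v1g2 and 0.05 for Atp6v1c1. Lamp2 was at -0.22 there, against 0.52 in the edgeR fit of the 5 libraries. Ctss was at -0.01 there, against 0.87, and Atp6v1f at -0.06, against -0.51. Of the 22 members below 0 in the edgeR fit, 20 were also below 0 in the authors' deposited table.

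Genes that work with the members were followed as lists. Of all tested genes edgeR called 2.99% higher and 2.66% lower, and 24.7% had an unadjusted edgeR p under 0.05. DESeq2 called 10.0% and limma-voom 2.8%. Of 12 tested genes for pump assembly and its regulators, 2 were called higher in het, Dmxl1 (0.67) and Dmxl2 (0.56), which belong to the RAVE-like assembly complex. Rogdi, of the same complex, was called lower (-0.60). Of 10 MiT/TFE genes and their regulators, Fnip1 was called higher (0.65) and 0 lower. Of 9 Ragulator and Rag genes, which recruit mTORC1 to lysosomes, 0 were called higher and 3 lower: Lamtor4 (-0.72), Lamtor1 (-0.58) and Lamtor2 (-0.54).
Of 26 glycosidases and sulfatases, Ids, the iduronate sulfatase, was called higher (0.65), and of 16 lipases and other hydrolases, Rnaset2b was called lower (-0.49). Of 11 genes for mannose 6-phosphate sorting, Gnptab, which makes the sorting tag, was called higher (0.63). Among 22 lysosomal membrane proteins, 8 other peptidases and 11 cathepsin inhibitors edgeR called 0, with 3, 1 and 3 genes at an unadjusted p under 0.05. DESeq2 called Scarb2 higher among the first and Serpina3n lower among the last, and limma-voom called 0. Of the genes that edgeR called in these lists, limma-voom called Dmxl1, Ids, Lamtor1 and Lamtor4 and DESeq2 called all 10, adding Oxr1 to the assembly list. Cst3, the main secreted inhibitor of cysteine cathepsins, had a log2 fold change of -0.44 (edgeR adjusted p = 0.106). Once length and GC trends were taken out, edgeR called 0 genes of these lists, and 0.0244% of all tested genes.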

How the data were processed

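Reads of the 5 libraries were processed by the submitters. Per the submitters' processing notes the build was GRCm39 and the tools included STAR, RSEM, Trim Galore, FastQC, MultiQC, SAMtools, edgeR and limma, with no version stated. Per the file headers, the deposited RSEM tables hold expected counts (not normalized) and TPM values, scaled by the authors to length and library total. The authors' transcript tables also give each transcript's percent of its gene's TPM, as deposited. The authors' deposited table holds log2 fold changes, moderated t scores and p-values.

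Groups came from the sample titles. Expected counts were rounded to whole numbers, filtered with edgeR's default expression filter (16412 of 57186 genes kept), TMM-scaled and passed to edgeR's robust quasi-likelihood test, with Benjamini-Hochberg adjustment over all 16412 genes and a threshold of 0.05. Each SE was taken as |log2 fold change| over the root of the F statistic. Libraries came from separate atrial pairs. The edgeR p-values set the difference between 3 het and 2 WT libraries against the spread within groups. That spread was estimated with information shared across all tested genes. Paralog and transcript shares were compared with exact two-sided permutation tests. Alternatives were DESeq2, limma-voom, limma-trend on TPM with a pseudocount of 1 or 0.1, other scalings and filters, length and GC trends per library (mgcv, as edgeR offsets) and each library left out. Depth, at 17784601 to 28353091 counts, limits precision most for Ctsw and Atp6v0a4; every other member had at least 106 counts in each library.

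The members and gene lists were chosen with earlier results of these data known. Named with full values were called members and the members of highest TPM of each kind. So were the 3 members per direction with the smallest p in edgeR and in the authors' table. Besides these and the members picked after their values were seen, Atp6v0a1, Atp6v1c1 and Atp6ap2 were described. Called genes of the lists were given with their log2 fold change only, and called cardiomyocyte and fibroblast markers were counted without names. Promoters are RefSeq's on GRCm38.p6 and transcripts GENCODE M21, another build than the submitters' GRCm39. The code was tested on simulated data. R 4.3.3 was used with mgcv 1.9.3, DESeq2 1.42.0, limma 3.58.1 and edgeR 4.0.16.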

Additional observations from a re-analysis of the deposited data

How the results depend on the processing

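Of the 20 named folds, all 20 kept their direction and side of the threshold with RLE size factors and with a filter at 1 CPM on average. Members called lower numbered 2 in the edgeR fit, 1 with library size alone, 4 with DESeq2, and 0 with limma-voom (smallest adjusted p 0.0503), with log2(TPM + 1) or log2(TPM + 0.1), and with the length trend or length and GC trends removed. Members called higher numbered 0, and 1 with library size alone, 2 with DESeq2 and 3 with every gene that had a count. Leaving out a library gave 0 to 1 lower and 0 to 1 higher. Genes called numbered 926, and 1647 with DESeq2, 459 with limma-voom, 1 with TPM + 1, 5 with TPM + 0.1, 2211 with every gene, 15 with the length trend removed and 4 with length and GC removed, and 0 to 878 with a library left out. The members' median log2 fold change was -0.10, and 0.12 with TPM + 1, 0.13 with TPM + 0.1, and -0.206 to 0.0383 with a library left out; TPM + 0.1 moved the median of all genes to 0.13 and every gene to -0.14. Some folds turned sign. With TPM + 1 and TPM + 0.1 they were 0.0103 and 0.0103 for Ctsa, 0.0380 and 0.0383 for Atp6v1e1, 0.22 and 0.23 for Ctsb, 0.0762 and 0.0766 for Lamp1, and 0.19 and 0.19 for Ctsl. With the length trend removed they were 0.0379 for Atp6v0e, 0.0665 for Atp6v1e1 and 0.0173 for Ctsl, and 0.0017 for Atp6v1e1 with GC removed too. Upper-quartile scaling gave -0.0046 for Atp6v1c1. Leaving out a library gave -0.310 to 0.0115 for Atp6v1d, -0.292 to 0.0383 for Atp6v1e1, -0.223 to 0.0780 for Lamp1, -0.218 to 0.0843 for Ctsl and -0.0603 to 0.161 for Atp6v1c1. Shares over counts turned to -0.69 points for Atp6v0a1 and 0.0320 for Atp6v0c, and the Atp6v0a2 transcript share over TPM to -5.06. With a library left out they ran from -1.03 to 6.69 points for Atp6v0a1 and from -2.66 to 0.0305 for Atp6v0e. The cause was not tested. Fits without a WT library leave 1, assumed to vary like het. No paired analysis was possible because het and WT share only replicate number 7.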

Other observations

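Markers of other cell types were summed as a description, over the markers that passed the expression filter. Fibroblast markers reached 5344, 5059 and 5046 CPM in het, against 5428 and 3324 CPM in WT, with WT 8 lowest. Of these 8 markers 5 had a log2 fold change above 0 and 3 below. Called by edgeR were 1 higher and 0 lower, against 2.99% and 2.66% of all tested genes. Of 9 mast cell and neutrophil markers 5 were tested, and Elane and Ly6g were at 0. The tested ones summed to 8.87, 6.58 and 8.85 CPM in het, against 4.18 and 3.04 CPM in WT. Dendritic and B cell markers summed to 20.7, 22.5 and 16.1 CPM in het and 16.4 and 17.6 CPM in WT, and these overlapped. The 3 tested of 8 cytotoxic lymphocyte markers summed to 1.78, 4.74 and 0.861 CPM in het and 1.52 and 0.584 CPM in WT. Het 6, highest for these, was also the library with the highest Ctsw, at 27 counts against 5 and 13 in the other het libraries and 15 and 6 in WT. Of 6 lung epithelium markers 1 was tested, and it stayed at or below 1.17 CPM. Sftpc, Sftpa1 and Lamp3 were at 0.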
